A study of Mus musculus with 8 samples.

Results

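The proteasome is the protease that destroys proteins tagged with ubiquitin. Its core particle is a barrel of outer alpha rings and inner beta rings, and 3 of the beta subunits (Psmb5, Psmb6 and Psmb7) carry the active sites. A regulatory particle of unfolding ATPases (Psmc genes) and non-ATPase subunits (Psmd genes) binds the ubiquitin chain and feeds the substrate into the barrel. In cells of the immune system, and elsewhere after interferon, the beta subunits Psmb8, Psmb9 and Psmb10 take the place of Psmb5, Psmb6 and Psmb7, which makes the immunoproteasome and changes the peptides cut for class I antigen presentation. The genes described here are the mouse genes whose symbols begin with Psma, Psmb, Psmc, Psmd, Psme, Psmf or Psmg and end in a number, with a mean of at least 1 CPM, the count scaled to a common library size, over the 8 libraries. They number 47 of the 24421 symbols counted, with 15 core genes, 3 immunoproteasome genes and 29 genes of regulatory particles, activators, an inhibitor and assembly chaperones. A further symbol of that form, Psmb11, a beta subunit of the thymus, lay below the limit with a mean of 0.0193 CPM and 7 counts in all. Psma8, an alpha subunit known from testis, lay just above it with a mean of 1.56 CPM, and the other 46 had means of 17.1 CPM (Psmg4) or more.

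RNA was sequenced from mouse C57BL/6 bone marrow cells that carry MLL-AF10, a leukaemia fusion of a histone methyltransferase with AF10, and grow in methylcellulose medium containing the cytokines SCF, IL-3 and GM-CSF. In MATIP cells both alleles of Kat5, the gene of the histone acetyltransferase Tip60, are floxed, and Cre-ERT2 is present, a recombinase made active by 4-hydroxytamoxifen (4-OHT), while the labels name MAflox cells only as MLL-AF10 flox cells and do not say whether these carry Cre-ERT2. There were 4 groups of 2 libraries: MATIP cells with 100 nM 4-OHT for 4 days, MATIP cells with its solvent ethanol (EtOH), MAflox cells with 4-OHT, and MAflox cells with EtOH. The labels do not say how many clones or animals each line came from or whether the 2 libraries of a group are separate cultures. The p-values therefore speak only to the spread among these samples, which may be technical.

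The libraries held 41101309 to 57312490 counts and 14380 to 15822 detected genes. Kat5 averaged 8.21 ± 0.154 CPM in 4-OHT-treated MATIP cells and 41.2 ± 0.100 CPM in EtOH-treated MATIP cells (SD, n = 2 each), and 60.0 ± 3.55 CPM in 4-OHT-treated MAflox cells and 42.4 ± 1.78 CPM in EtOH-treated MAflox cells. Genes of maturing myeloid cells moved with the treatment. Of 12 monocyte and macrophage markers, 11 were higher with 4-OHT in MATIP cells, and 8 were higher and 1 lower in MAflox cells. Over all tested genes 37.5% rose and 38.6% fell in MATIP cells, and 33.1% rose and 32.1% fell in MAflox cells. The summed level of the monocyte and macrophage markers was 20990 to 22090 CPM with 4-OHT against 712 to 739 CPM with EtOH in MATIP cells, and 5604 to 5720 against 571 to 601 CPM in MAflox cells. All 11 mature neutrophil markers in the table were higher with 4-OHT in both lines, with sums of 33690 to 37240 against 736 to 874 CPM in MATIP cells and 49420 to 52840 against 206 to 211 CPM in MAflox cells. Summed markers of dendritic cells were 209 to 216 CPM with 4-OHT against 13.0 to 13.1 CPM with EtOH in MATIP cells (6 of 7 tested markers higher, 1 lower), and 30.9 to 33.1 against 22.4 to 25.7 CPM in MAflox cells (4 of 7 higher, 1 lower). Markers of lymphoid, erythroid and megakaryocytic, eosinophil, mast cell and basophil, and stromal cells each summed to at most 156 CPM in any library, and Cd3e, Gzma, Hba-a1 and Hbb-bs had 0 counts. The eosinophil sum was 32.6 to 34.8 CPM with 4-OHT against 4.20 to 4.22 CPM with EtOH in MATIP cells. In MAflox cells it was 52.6 to 80.7 against 7.83 to 9.23 CPM. The part of these marker changes in the proteasome results below was not tested, and in bulk RNA fewer cells of a type and less RNA per cell cannot be told apart.

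As a group, proteasome transcripts were lower with 4-OHT in MATIP cells, while their sum in MAflox cells separated the treatments only before the libraries were scaled. The 47 genes summed to 4960 and 5241 CPM in 4-OHT-treated MATIP cells, against 8186 and 7784 CPM in EtOH-treated MATIP cells, a ratio of 0.639 of the means. In MAflox cells they summed to 8161 and 8351 CPM with 4-OHT, against 8463 and 8164 CPM with EtOH, a ratio of 0.993. These CPM are TMM-scaled, which centres each library on its bulk of genes, and on that scale the MATIP groups did not overlap and the MAflox groups did. Before TMM, the 47 genes took 0.474% and 0.492% of all gene counts in MATIP 4-OHT, 0.848% and 0.811% in MATIP EtOH, 0.778% and 0.789% in MAflox 4-OHT, and 0.907% and 0.873% in MAflox EtOH, so that the treatments did not overlap in either line. The drop in MATIP cells was present in each part: the ratio of 4-OHT to EtOH was 0.671 for the summed core genes, 0.44 for the immunoproteasome genes and 0.629 for the regulatory genes. In MAflox cells the same ratios were 1.15, 0.827 and 0.906.

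Gene by gene, 42 of 47 fell and 3 rose with 4-OHT in MATIP cells (edgeR quasi-likelihood test over 13722 genes, Benjamini-Hochberg adjusted p under 0.05, 2 libraries a group), where 76.1% of all tested genes passed, 38.6% as falls and 37.5% as rises. Both treated libraries lay below both EtOH libraries for 42 of the 47 and above them for 4, where each happened for 44.2% of tested genes. The median log2 fold change of the 47 was −0.74, with a range of −1.59 to 0.67, beside 0.00 over all tested genes, and 12 of them were at least 2-fold lower. Without Psma8, which passed the count filter only through the MATIP libraries, 41 of 46 fell. In MAflox cells 15 rose, 16 fell and 16 did not pass the test, where 65.2% of all tested genes passed, 33.1% as rises and 32.1% as falls, and the median was −0.01. Treated libraries lay above both EtOH libraries for 19 of the 47 (41.4% of tested genes) and below them for 20 (39.7%). The difference between the responses (MATIP minus MAflox) was negative for 37 of 47 and positive for 2, where 61.9% of tested genes passed, 33.6% as negative and 28.3% as positive, with a median of −0.77 on the log2 scale.

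The MAflox counts depend on how the libraries are scaled. Proteasome transcripts are short, with a median of 1541 bases against 2999 bases over tested genes. With each library's smooth trend of counts on transcript length and GC content removed, 3 of the 47 were higher and 41 lower in MATIP cells (median log2 −0.675), while in MAflox cells 5 were higher and 33 lower (median −0.31), and the difference was negative for 33 and positive for 7 (median −0.37). Of all 13722 tested genes, 5187 were then higher and 5393 lower in MATIP cells, and 4406 higher and 4596 lower in MAflox cells. The difference was negative for 4586 of them and positive for 3594. Scaled by library size alone, which moved the median of all tested genes to −0.13 in MATIP and −0.15 in MAflox cells, 2 rose and 42 fell in MATIP cells, and 8 rose and 24 fell in MAflox cells.

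**Figure D1:**
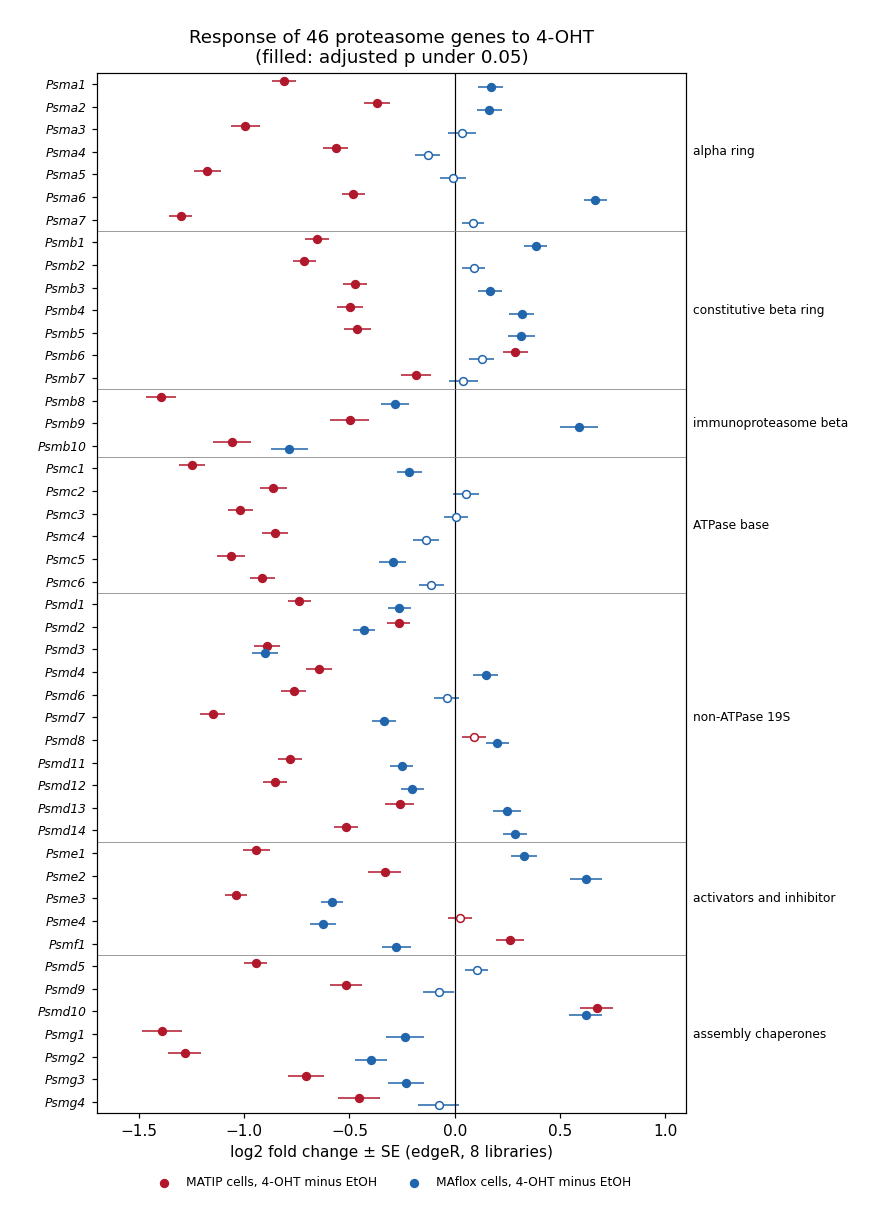
Log2 fold changes of 46 proteasome genes between 4-OHT and EtOH, as 4-OHT over EtOH, in MATIP cells (red) and MAflox cells (blue), by role, with bars of 1 standard error of the edgeR fit to 8 libraries and filled points where the adjusted p was under 0.05. Psma8 is left out because MAflox cells held 6 counts of it. Red points lie left of 0 for all but 5 genes, while blue points lie on both sides of it.

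The 7 alpha-ring genes, which encode the gate of the barrel, all fell with 4-OHT in MATIP cells, with a median log2 fold change of −0.81. In MAflox cells 3 rose, 0 fell and 4 did not pass (median 0.09). That MAflox direction did not hold under 2 other scalings, with 1 higher and 2 lower by library size alone and 1 higher and 5 lower after the length and GC correction. Psma7 gave the most negative difference between the lines of all 47 before the length and GC correction. It had 104 and 105 CPM in 4-OHT-treated MATIP cells, against 262 and 254 CPM in EtOH-treated MATIP cells, and 306 and 315 CPM in 4-OHT-treated MAflox cells, against 294 and 291 CPM in EtOH-treated MAflox cells. Both treated MATIP libraries lay under the other 6. Its log2 fold change was −1.30 ± 0.05 in MATIP cells (SE, 2.47-fold lower, edgeR adjusted p = 4.49e-14) and 0.09 ± 0.05 in MAflox cells, where it did not pass, and the responses differed by −1.39 ± 0.08. After the correction its MAflox value was −0.28 and passed as a fall (edgeR adjusted p = 2.37e-05). The difference between the lines was then −0.95 for Psma7, and that of Psmd5 was more negative, at −1.14. Psma6 moved in opposite directions in the 2 lines. Its levels were 177 and 190.0 CPM with 4-OHT and 262 and 251 CPM with EtOH in MATIP cells, and 445 and 454 CPM with 4-OHT and 284 and 282 CPM with EtOH in MAflox cells, so that treated MATIP cells were the lowest, treated MAflox cells the highest, and the EtOH groups lay between them. The log2 fold changes were −0.48 ± 0.06 in MATIP and 0.67 ± 0.05 in MAflox cells, with a difference of −1.15 ± 0.08 (edgeR adjusted p = 2.78e-10). After the length and GC correction the MAflox rise of Psma6 was 0.19, and over the 7 genes 5 differences between lines passed as negative and 1 as positive. The other 5 alpha genes fell by 0.37 (Psma2) to 1.18 (Psma5) on the log2 scale in MATIP cells.

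Of the 7 constitutive beta-ring genes, 6 fell and Psmb6 rose with 4-OHT in MATIP cells, with a median log2 fold change of −0.47, the smallest drop among the subunit classes of the core and the regulatory particle. In MAflox cells 4 rose and 0 fell (median 0.17), but after the length and GC correction 1 was higher and 4 were lower there (median −0.36), and by library size alone 3 rose and 0 fell with a median of −0.01. Psmb1, a beta subunit without an active site, averaged 133 ± 8.22 CPM with 4-OHT and 209.7 ± 2.54 CPM with EtOH in MATIP cells, and 316 ± 8.61 CPM with 4-OHT and 242 ± 0.414 CPM with EtOH in MAflox cells (SD, n = 2 each). It fell by 0.65 in MATIP cells and rose by 0.38 in MAflox cells on the log2 scale, a difference of −1.04 ± 0.08. Psmb2, also without an active site, had the lowest p of the class in MATIP cells, with 102 ± 2.20 CPM with 4-OHT and 167 ± 1.26 CPM with EtOH (log2 −0.71 ± 0.05).

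The catalytic subunits Psmb5, Psmb6 and Psmb7 behaved differently from each other in MATIP cells. Psmb5, the chymotrypsin-like subunit, had 83.2 and 89.7 CPM with 4-OHT against 124 and 115 CPM with EtOH in MATIP cells, and 163 and 162 against 136 and 125 CPM in MAflox cells. Neither pair of groups overlapped, and the directions were opposite, with log2 fold changes of −0.46 ± 0.06 in MATIP and 0.32 ± 0.06 in MAflox cells. The MAflox value turned to −0.10 after the length and GC correction. Psmb6, the caspase-like subunit, had 177 and 189 CPM with 4-OHT against 156 and 144 CPM with EtOH in MATIP cells, and 181 and 180.3 against 168 and 162 CPM in MAflox cells. It was the only beta-ring gene of the 10 to rise in MATIP cells (log2 0.29 ± 0.06, edgeR adjusted p = 0.000208), and its MAflox value of 0.13 ± 0.06 did not pass. After the length and GC correction Psmb6 was lower in MAflox cells (log2 −0.38, edgeR adjusted p = 1.6e-06) and the difference between the lines was 0.52 (edgeR adjusted p = 3.22e-06). In the fit used throughout, that difference was 0.16 ± 0.08 and did not pass (edgeR adjusted p = 0.104). It passed with DESeq2, with its size factors, by library size alone and with the 1 CPM filter, at 0.20 to 0.23. Without MATIP 4-OHT replicate 1 it was 0.23. Psmb7, the trypsin-like subunit, had 159 and 178 CPM with 4-OHT against 201 and 183 CPM with EtOH in MATIP cells, and 214 and 216 against 224 and 194 CPM in MAflox cells. Its small drop in MATIP cells (log2 −0.19 ± 0.07, edgeR adjusted p = 0.0245) no longer passed without MATIP 4-OHT replicate 1 (log2 −0.07, edgeR adjusted p = 0.485) or without any of 3 other libraries, with DESeq2 size factors, with DESeq2, with the stricter filter or after the length and GC correction.

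The 3 immunoproteasome genes all fell with 4-OHT in MATIP cells, with a median log2 fold change of −1.06, and in MAflox cells Psmb8 and Psmb10 fell while Psmb9 rose. Psmb8, which replaces Psmb5, had 46.1 and 52.8 CPM in 4-OHT-treated MATIP cells, against 132 and 128 CPM in EtOH-treated MATIP cells, and 140.1 and 139 CPM in 4-OHT-treated MAflox cells, against 179 and 161 CPM in EtOH-treated MAflox cells. The treated MATIP libraries were the lowest of the 8. Its log2 fold change was −1.39 ± 0.07 in MATIP cells (2.63-fold lower, edgeR adjusted p = 8.37e-13) and −0.28 ± 0.07 in MAflox cells (edgeR adjusted p = 0.00103), and the difference was −1.11 ± 0.10. Psmb10, which replaces Psmb7, had 23.2 and 25.9 CPM with 4-OHT against 56.0 and 46.6 CPM with EtOH in MATIP cells, and 36.8 and 36.8 against 66.3 and 60.5 CPM in MAflox cells. Both lines were lower with 4-OHT without overlap, with log2 fold changes of −1.06 ± 0.09 in MATIP and −0.79 ± 0.09 in MAflox cells, and the difference of −0.27 ± 0.13 did not pass (edgeR adjusted p = 0.0653). It did pass without MATIP EtOH replicate 2 (log2 −0.41, edgeR adjusted p = 0.00497) and without MAflox EtOH replicate 1 (log2 −0.35, edgeR adjusted p = 0.0371), and it was 0.02 after the length and GC correction. Psmb9, which replaces Psmb6, had 14.5 and 16.3 CPM with 4-OHT against 21.5 and 22.1 CPM with EtOH in MATIP cells, and 38.6 and 35.5 against 25.6 and 23.6 CPM in MAflox cells. Treated libraries were the lowest of the 8 in MATIP cells and the highest in MAflox cells. The log2 fold changes were −0.50 ± 0.09 in MATIP and 0.59 ± 0.09 in MAflox cells, and the difference was −1.09 ± 0.13 (edgeR adjusted p = 5.66e-07).

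**Figure D2:**
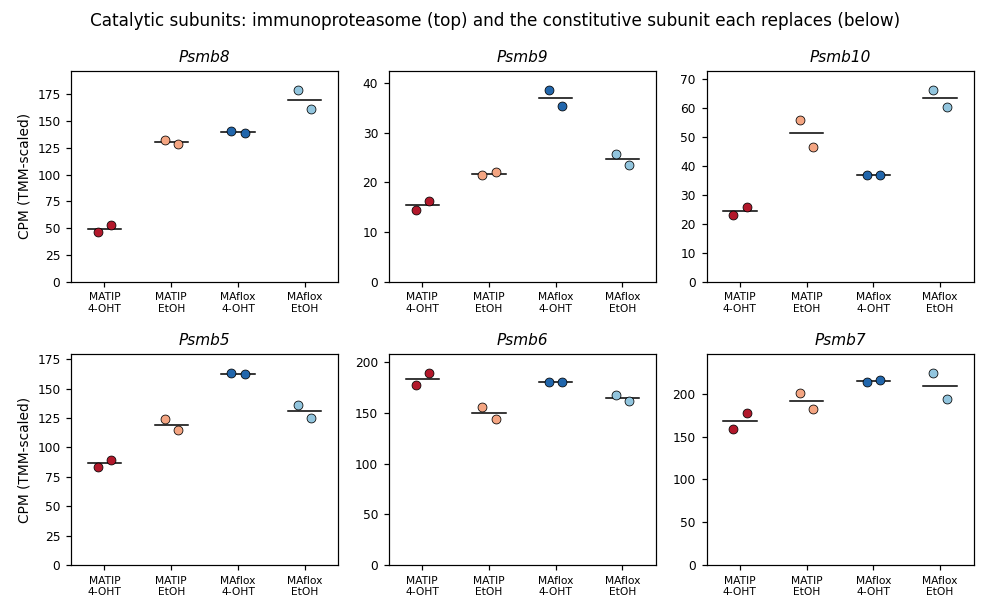
Levels in CPM (TMM-scaled, axes from 0) of the immunoproteasome genes in the upper row and of the constitutive gene each replaces in the lower row, 1 point a library and a line at the mean of 2, for MATIP 4-OHT, MATIP EtOH, MAflox 4-OHT and MAflox EtOH. Psmb8 lies at 46.1 to 52.8 CPM in treated MATIP cells and at 128 CPM or more in the other groups, while Psmb9 is highest in treated MAflox cells and Psmb6 is higher with 4-OHT in MATIP cells.

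Setting each immunoproteasome gene over the constitutive gene it replaces, in the same library, removes the scaling between libraries. It does not remove a trend of counts on transcript length or GC content, and the ratios were not computed after that correction. In MAflox cells the corrected log2 fold changes were −0.49 for Psmb8, −0.10 for Psmb5, 0.33 for Psmb9, −0.38 for Psmb6, −1.03 for Psmb10 and −0.36 for Psmb7. The Psmb8 to Psmb5 ratio of CPM was 0.554 and 0.589 in MATIP 4-OHT, 1.06 and 1.12 in MATIP EtOH, 0.859 and 0.856 in MAflox 4-OHT, and 1.31 and 1.29 in MAflox EtOH. It was lower with 4-OHT in both lines, by 0.94 in MATIP and 0.60 in MAflox cells on the log2 scale. The Psmb10 to Psmb7 ratio was 0.146 and 0.146 in MATIP 4-OHT, 0.279 and 0.255 in MATIP EtOH, 0.172 and 0.17 in MAflox 4-OHT, and 0.296 and 0.311 in MAflox EtOH, which is lower with 4-OHT by 0.87 in MATIP and 0.83 in MAflox cells on the log2 scale. For both ratios every treated library lay below both EtOH libraries of its line, which gives p = 0.0556 in an exact two-sided permutation test within lines (0.0834 adjusted over 3 ratios), the smallest p that the 36 arrangements allow. The Psmb9 to Psmb6 ratio was 0.0816 and 0.0863 in MATIP 4-OHT, 0.138 and 0.153 in MATIP EtOH, 0.214 and 0.197 in MAflox 4-OHT, and 0.153 and 0.145 in MAflox EtOH. Here the lines went in opposite directions, with a log2 change of −0.79 in MATIP and 0.46 in MAflox cells, and the mean over the lines gave p = 0.556 in the same exact permutation test. Per kilobase of the longest transcript, Psmb8 made up 24.0% of Psmb8 and Psmb5 together in MATIP 4-OHT, 37.5% in MATIP EtOH, 32.1% in MAflox 4-OHT and 41.8% in MAflox EtOH. Per kilobase of all annotated exons the same shares were 13.2%, 22.4%, 18.5% and 25.7%.

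**Figure D3:**
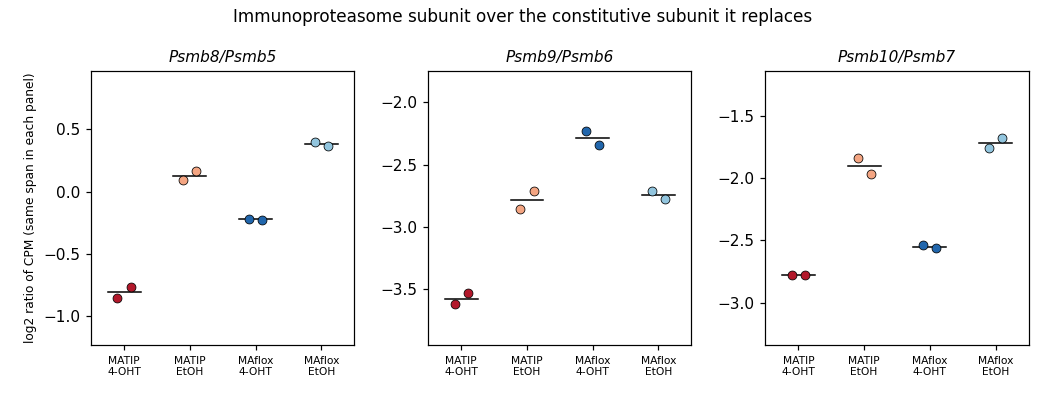
Log2 ratio of CPM between each immunoproteasome gene and the constitutive gene it replaces, 1 point a library and a line at the mean of 2, over the 4 groups, with the same span on each axis. Treated libraries lie below the EtOH libraries of their line for Psmb8 over Psmb5 and Psmb10 over Psmb7, and on opposite sides in the 2 lines for Psmb9 over Psmb6.

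The promoters of genes with unlike responses are shown here so that letters can be set beside values: Psmb8 and Psmb9, 2 immunoproteasome genes of which 1 fell in both lines and the other changed direction between lines, Psmb5 and Psmb6, the subunits they replace, of which 1 fell and 1 rose in MATIP cells, and Psmd10, which rose in both lines. Each is the RefSeq window of 250 bases before to 50 bases after the gene's start on GRCm38.p6, in the direction of the gene, with motif matches in capitals.
Psmb8 (chr17:34197945-34198244, plus strand): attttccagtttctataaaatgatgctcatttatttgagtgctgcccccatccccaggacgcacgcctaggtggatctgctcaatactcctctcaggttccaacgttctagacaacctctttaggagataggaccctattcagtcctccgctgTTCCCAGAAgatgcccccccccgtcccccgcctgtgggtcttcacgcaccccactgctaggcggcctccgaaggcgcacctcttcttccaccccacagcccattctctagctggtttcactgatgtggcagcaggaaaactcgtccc
Psmb9 (chr17:34187281-34187580, minus strand): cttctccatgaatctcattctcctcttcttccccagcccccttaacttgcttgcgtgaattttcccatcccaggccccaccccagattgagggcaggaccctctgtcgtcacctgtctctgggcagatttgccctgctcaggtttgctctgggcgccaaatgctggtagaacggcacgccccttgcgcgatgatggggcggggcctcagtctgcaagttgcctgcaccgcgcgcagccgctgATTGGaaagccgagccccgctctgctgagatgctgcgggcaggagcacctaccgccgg
Psmb5 (chr14:54617946-54618245, minus strand): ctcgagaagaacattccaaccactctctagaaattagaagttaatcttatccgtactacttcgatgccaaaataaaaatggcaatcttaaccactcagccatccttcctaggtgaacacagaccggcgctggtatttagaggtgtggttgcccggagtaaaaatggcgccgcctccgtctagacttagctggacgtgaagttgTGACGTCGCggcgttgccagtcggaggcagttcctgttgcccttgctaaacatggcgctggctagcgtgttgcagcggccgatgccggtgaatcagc
Psmb6 (chr11:70525107-70525406, plus strand): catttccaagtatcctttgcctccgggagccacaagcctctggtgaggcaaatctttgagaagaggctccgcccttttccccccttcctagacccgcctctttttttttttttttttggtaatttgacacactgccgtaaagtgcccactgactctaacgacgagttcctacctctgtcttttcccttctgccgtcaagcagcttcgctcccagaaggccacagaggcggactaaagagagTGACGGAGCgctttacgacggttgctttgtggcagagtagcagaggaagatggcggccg
Psmd10 (chrX:140956662-140956961, minus strand): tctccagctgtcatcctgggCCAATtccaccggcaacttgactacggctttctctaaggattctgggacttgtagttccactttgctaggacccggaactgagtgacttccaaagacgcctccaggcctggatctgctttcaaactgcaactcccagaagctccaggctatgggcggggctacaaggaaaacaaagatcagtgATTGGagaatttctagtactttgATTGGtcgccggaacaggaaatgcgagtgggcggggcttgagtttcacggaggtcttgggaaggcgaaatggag
The capitals mark a gamma-activated sequence (GAS) at −97 from the start in Psmb8, a reversed CCAAT box at −8 in Psmb9, an antioxidant response element (ARE) at −47 in Psmb5 and at −9 in Psmb6, and 3 CCAAT boxes in Psmd10, at −230 and, reversed, at −47 and −24, counting the first base of the match. Psmb5 and Psmb6 thus both hold an ARE near the start and had MATIP log2 fold changes of −0.46 and 0.29. The Psmb8 and Psmb9 windows lie inside the longer genes of the GENCODE annotation, which start at chr17:34197721 for Psmb8 and at chr17:34187764 for Psmb9. In the 5 windows shown, matches do not overlap each other.

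Motifs were searched on both strands in the windows of 39 of the 47 genes, and no window was given for Psma8, Psmb1, Psmb2, Psmb7, Psmc3, Psmd3, Psmd7 and Psmg2. The ARE, searched as TGACNNNGC, was in 6 of 39 windows (15.4%) and in 12.5% of all 27025 windows, or 15% of the 10391 windows of tested genes. The interferon-stimulated response element, searched as GAAA, any 2 bases and GAAA, was in 5 of 39 (12.8%) and in 3.49% of all windows, or 3.1% of those of tested genes. The 5 were Psmb3, Psmd4, Psmd9, Psme1 and Psmg4, with 0 of the 3 immunoproteasome genes. The windows of Psmb8 and Psmb9 do not reach the GENCODE starts of those genes. Nor do those of Psmd9 and Psme1, which hold the element, or those of Psmd5, Psmd13 and Psmf1. GAS, searched as TTCNNNGAA, was in 3 of 39 (7.69%) and in 8.47% of all windows, or 7.07% of those of tested genes. The CCAAT box was in 13 of 39 (33.3%) and in 37.9% of all windows, or 38.8% of those of tested genes. The E-box CACGTG was in 4 of 39 (10.3%) and in 7.24% of all windows, or 9.99% of those of tested genes. These letters are matches only, and nothing here measured binding.

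The 6 ATPase genes of the base, whose products unfold the substrate, all fell with 4-OHT in MATIP cells, between 0.85 and 1.25 on the log2 scale, with a median of −0.97 and an SD of 0.15 across the genes. In MAflox cells 2 fell and 4 did not pass (median −0.12), whereas all 6 were lower there after the length and GC correction (median −0.46). Psmc1 averaged 125 ± 6.15 CPM with 4-OHT and 296 ± 16.8 CPM with EtOH in MATIP cells, and 228 ± 6.61 CPM with 4-OHT and 265 ± 8.42 CPM with EtOH in MAflox cells (SD, n = 2 each). Its log2 fold change was −1.25 ± 0.06 in MATIP cells (2.37-fold lower, edgeR adjusted p = 4.55e-13) and −0.22 ± 0.06 in MAflox cells. Psmc5 had the lowest p of the class in MAflox cells, with 135 ± 4.25 CPM with 4-OHT and 165 ± 9.80 CPM with EtOH (log2 −0.29 ± 0.07), beside −1.06 ± 0.07 in MATIP cells. All 6 differences between the lines were negative and passed the test, with a median of −0.86.

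Of the 11 non-ATPase subunits of the regulatory particle, 10 fell and Psmd8 did not pass with 4-OHT in MATIP cells, with a median log2 fold change of −0.74. In MAflox cells 4 rose and 6 fell (median −0.20), while 0 rose and 7 fell by library size alone and 0 rose and 8 fell after the length and GC correction. Psmd7, a lid subunit and the partner of the deubiquitinase Psmd14, had the lowest p in MATIP cells, with 112 ± 2.55 CPM with 4-OHT and 249 ± 16.8 CPM with EtOH (log2 −1.15 ± 0.06, 2.22-fold lower). Psmd14 itself fell by 0.52 in MATIP cells and rose by 0.29 in MAflox cells, and the MAflox value was −0.14 after the length and GC correction. Psmd3, a lid subunit, had 153 and 164 CPM with 4-OHT against 303 and 285 CPM with EtOH in MATIP cells, and 147 and 134 against 267 and 258 CPM in MAflox cells. The groups did not overlap in either line, and the log2 fold changes of −0.89 ± 0.06 in MATIP and −0.90 ± 0.06 in MAflox cells gave a difference of 0.01 ± 0.09. That MAflox drop was the steepest of any member other than Psma8. Psmd4, a ubiquitin receptor, and Psmd13, a lid subunit, fell in MATIP cells by 0.64 and 0.26 and rose in MAflox cells by 0.15 and 0.25. The calls for Psmd13 did not hold without MATIP 4-OHT replicate 1 (log2 −0.14, edgeR adjusted p = 0.113) or, in MAflox cells, without MAflox 4-OHT replicate 2 (edgeR adjusted p = 0.0523), and the MAflox call for Psmd4 was lost without any of 3 MAflox libraries.

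Psmd8, a lid subunit, had 173 and 187 CPM with 4-OHT against 173 and 165 CPM with EtOH in MATIP cells, and 264 and 258 against 226 and 228 CPM in MAflox cells. All 4 MATIP libraries lay below all 4 MAflox libraries. Its log2 fold change was 0.09 ± 0.06 in MATIP cells, which did not pass (edgeR adjusted p = 0.154), but it passed as a rise with DESeq2 (log2 0.16, adjusted p = 0.00937) and without MATIP 4-OHT replicate 1 (log2 0.19, edgeR adjusted p = 0.022), and it was −0.04 by library size alone. In MAflox cells it rose by 0.20, a call lost by library size alone (log2 0.03, edgeR adjusted p = 0.652) and after the length and GC correction (log2 0.01, edgeR adjusted p = 0.831).

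Assembly chaperones hold the rings and the base together while they are built and then leave. Of 7, 6 fell and Psmd10 rose with 4-OHT in MATIP cells (median log2 −0.71), and 1 rose and 3 fell in MAflox cells (median −0.08). After the length and GC correction 1 of the 7, Psmd5, was higher and 4 were lower in MAflox cells (median −0.65). The log2 fold changes in MATIP cells went down to −1.39 for Psmg1 and −1.28 for Psmg2, which pair to build the alpha ring. Psmd5, a chaperone of the base, had the lowest p, with 64.8 ± 0.764 CPM with 4-OHT and 125 ± 1.75 CPM with EtOH (log2 −0.95 ± 0.06), and its MAflox value of 0.10 ± 0.06 did not pass but was 0.18 and passed after the correction (edgeR adjusted p = 0.00327). Psmd10, the base chaperone also called gankyrin, had 49.96 and 52.28 CPM with 4-OHT against 31.9 and 32.2 CPM with EtOH in MATIP cells, and 49.2 and 50.3 against 34.7 and 30.0 CPM in MAflox cells. All 4 treated libraries lay above all 4 EtOH libraries. The log2 fold change was 0.67 ± 0.08 in MATIP (edgeR adjusted p = 2.07e-07) and 0.62 ± 0.08 in MAflox cells, and the responses differed by 0.05 ± 0.11, which did not pass. After the length and GC correction the MAflox rise was 0.15 and did not pass (edgeR adjusted p = 0.0699), and the difference between the lines was 0.69 and did pass (edgeR adjusted p = 1.16e-05).

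The activators open the barrel without ATP. Of the 5 genes for activators and the inhibitor, 3 fell, Psmf1 rose and Psme4 did not pass with 4-OHT in MATIP cells (median log2 −0.33), and 2 rose and 3 fell in MAflox cells (median −0.28). Psme1 and Psme2 encode the interferon-inducible PA28 alpha and beta subunits and lie close together on chromosome 14. Psme1 had 46.4 and 47.9 CPM with 4-OHT against 93.8 and 87.6 CPM with EtOH in MATIP cells, and 135 and 145 against 108 and 115 CPM in MAflox cells. Psme2 had 38.0 and 45.5 CPM with 4-OHT against 55.1 and 50.4 CPM with EtOH in MATIP cells, and 98.7 and 99.0 against 64.2 and 64.3 CPM in MAflox cells. For both genes the treated MATIP libraries were the lowest and the treated MAflox libraries the highest of the 8. The log2 fold changes of Psme1 were −0.94 ± 0.06 in MATIP and 0.33 ± 0.06 in MAflox cells, with a difference of −1.27 ± 0.09 (edgeR adjusted p = 4.86e-10), and the MAflox value was −0.01 after the length and GC correction. Those of Psme2 were −0.33 ± 0.08 in MATIP and 0.62 ± 0.08 in MAflox cells, with a difference of −0.95 ± 0.11, and after the correction the MAflox value was 0.18 and the difference −0.53. The MATIP drop of Psme2 did not hold without MATIP 4-OHT replicate 1 (log2 −0.17, edgeR adjusted p = 0.0723), and 59.3% of the 50-base stretches of this gene also occur in another annotated gene, Psme2b most often.

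Psme3, which encodes the nuclear PA28 gamma, averaged 173 ± 3.28 CPM with 4-OHT and 355 ± 3.41 CPM with EtOH in MATIP cells, and 235 ± 2.75 CPM with 4-OHT and 352 ± 5.09 CPM with EtOH in MAflox cells (SD, n = 2 each). It fell in both lines, by 1.04 in MATIP and 0.58 in MAflox cells on the log2 scale, and the difference of −0.46 ± 0.07 passed. Psme4, which encodes the activator PA200, had 214 and 202 CPM with 4-OHT against 199 and 209 CPM with EtOH in MATIP cells, and 98.8 and 107 against 156 and 161 CPM in MAflox cells. The MATIP groups overlapped and the MAflox groups did not. It fell by 0.63 in MAflox cells, its MATIP value of 0.02 ± 0.06 did not pass, and the difference of 0.65 ± 0.08 passed (edgeR adjusted p = 1.58e-06). After the length and GC correction the MAflox log2 fold change of Psme4 was −0.29 and the difference 0.31, and both passed. Psmf1, which encodes the inhibitor PI31, averaged 59.5 ± 0.900 CPM with 4-OHT and 49.6 ± 2.09 CPM with EtOH in MATIP cells, and 40.0 ± 0.675 CPM with 4-OHT and 48.5 ± 0.562 CPM with EtOH in MAflox cells. It was the only member to rise in MATIP cells (log2 0.26 ± 0.07) and fall in MAflox cells (log2 −0.28 ± 0.07), and by library size alone the rise did not pass (log2 0.13, edgeR adjusted p = 0.0906).

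**Figure D4:**
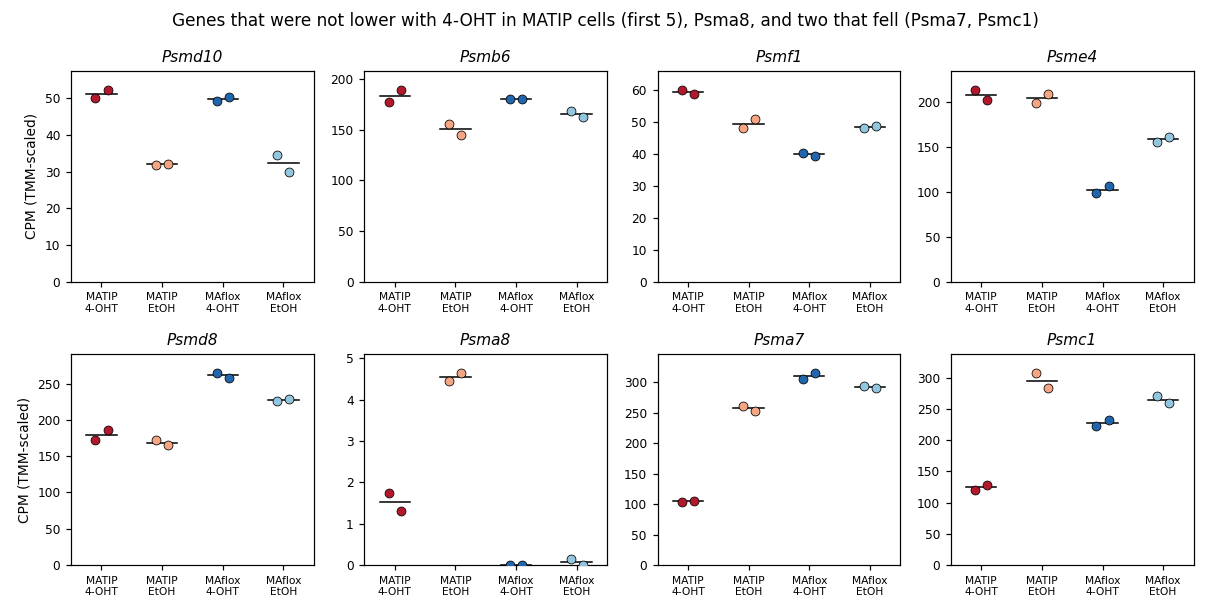
Levels in CPM (TMM-scaled, axes from 0) of the 5 genes that did not fall with 4-OHT in MATIP cells (Psmd10, Psmb6, Psmf1, Psme4, Psmd8), of Psma8, and of Psma7 and Psmc1 as genes that fell, 1 point a library and a line at the mean of 2, for MATIP 4-OHT, MATIP EtOH, MAflox 4-OHT and MAflox EtOH. Psmd10 is higher with 4-OHT in both lines, and Psme4 is lower with 4-OHT in MAflox cells, while its MATIP groups overlap.

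Set side by side, the calls in the lines fell into a few patterns. Of the 47 genes, 14 fell in both lines and 13 fell in MATIP cells and rose in MAflox cells. The 13 were Psma1, Psma2, Psma6, Psmb1, Psmb3, Psmb4, Psmb5, Psmb9, Psmd4, Psmd13, Psmd14, Psme1 and Psme2, which are 7 core genes, Psmb9, 3 non-ATPase subunits and the PA28 pair. After the length and GC correction only 5 of the 47 were higher in MAflox cells, beside 4406 of all 13722 tested genes. A further 15 fell in MATIP cells and did not pass in MAflox cells. Psmd10 alone rose in both. The share of all tested genes with each pair of calls was not counted, so these numbers cannot be set against it. Taken singly, 38.6% of tested genes fell and 37.5% rose in MATIP cells, and 32.1% fell and 33.1% rose in MAflox cells. The difference between responses passed for 39 genes, 37 negative and 2 positive (Psme4 and Psmf1), and for Psma8, Psmb6, Psmb7, Psmb10, Psmd2, Psmd3, Psmd8 and Psmd10 it did not pass.

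**Figure D5:**
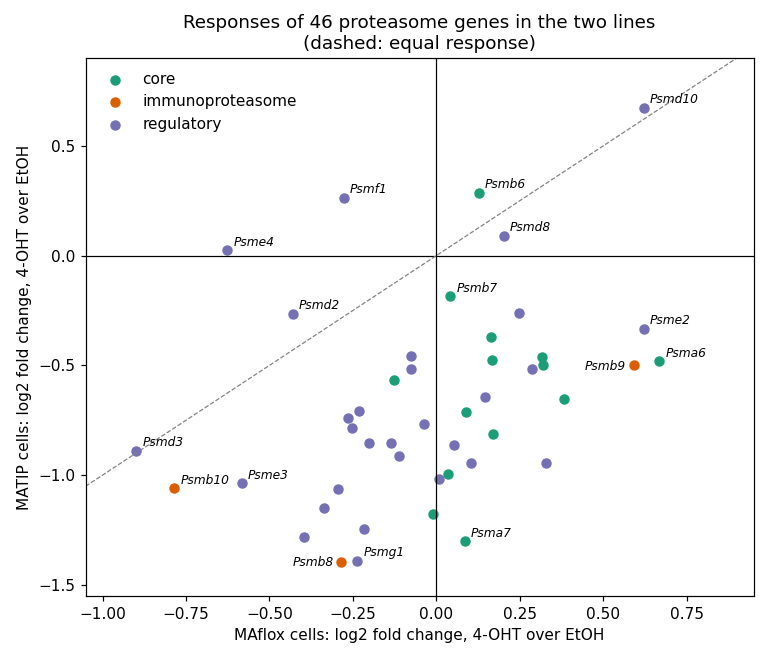
Log2 fold change of 46 proteasome genes with 4-OHT over EtOH in MATIP cells (vertical axis) against MAflox cells (horizontal axis), coloured by core, immunoproteasome and regulatory part, with a dashed line of equal response. All but 6 points lie below the line, with Psme4, Psmf1, Psmd2 and Psmb6 above it and Psmd3 and Psmd10 close above it.

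In EtOH, 35 of the 47 genes did not pass the test between the lines. There, 4 of 47 were higher and 8 lower in MATIP than in MAflox cells, where 32% of all tested genes passed, 20.3% as higher and 11.7% as lower. Without Psma8, 3 of 46 were higher and 8 lower. MATIP libraries lay below both MAflox libraries for 23 of the 47 (28.4% of tested genes) and above them for 5 (35.8%), and the summed level was 0.961 of that in MAflox cells. The 8 lower genes were Psmd8, Psmb8, Psmb10, Psme1, Psme2, Psma3, Psmb1 and Psma7, with log2 differences of −0.43 (Psmd8) to −0.18 (Psma7). Psmb8 had 132 and 128 CPM in MATIP EtOH and 179 and 161 CPM in MAflox EtOH (log2 −0.38 ± 0.07, edgeR adjusted p = 0.000194). Psme4 was higher by 0.37 in MATIP cells, with 199 and 209 CPM in MATIP EtOH and 156 and 161 CPM in MAflox EtOH. Psmc1 and Psmd3, each higher by 0.16, did not pass under most other settings, and the number lower moved between 7 and 19 over scalings, filters and tools and between 3 and 13 with a library left out. It was 3 without MATIP EtOH replicate 2, 4 without MAflox EtOH replicate 1, and 13 without any 1 of the 4 libraries treated with 4-OHT.

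Psma8, known as an alpha subunit of the testis proteasome, passed the count filter only through the MATIP libraries. It had 139 counts in the 2 libraries of MATIP 4-OHT, 482 in MATIP EtOH, 0 in MAflox 4-OHT and 6 in MAflox EtOH. In CPM it was 1.73 and 1.30 in MATIP 4-OHT, 4.46 and 4.64 in MATIP EtOH, 0 in both libraries of MAflox 4-OHT, and 0.136 and 0 in MAflox EtOH, so that all 6 counts there came from 1 library. At equal depth the ratio of MATIP EtOH to MAflox EtOH was 71.4 (95% counting interval 32.6 to 195), and that of MATIP 4-OHT to MAflox 4-OHT had a lower 95% counting bound of 36.2. With 4-OHT in MATIP cells it fell by 1.59 on the log2 scale (edgeR adjusted p = 0.000707), which did not pass in DESeq2 as run here (log2 −1.51, adjusted p = 0.211). The authors' deposited table gives an adjusted p of 7.13e-06 for the same log2 fold change of −1.51. Intervals cover counting error only.

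Levels can be compared between genes only per length. Per kilobase of the longest transcript, Psma6 was the highest of the 47 in MATIP EtOH (246 CPM per kb), MAflox 4-OHT (431) and MAflox EtOH (271), and Psmb6 was the highest in MATIP 4-OHT (230), followed by Psma6 (176). Per kilobase of all exons Psma6 was above Psmb6 in MATIP 4-OHT too, at 149 against 97.8. Psmb9 and Psmb10 stood between 37 and 45 of 47 in order of level in every group, at 11.4 and 18.7 CPM per kb of transcript in MATIP 4-OHT, 16.1 and 39.1 in MATIP EtOH, 27.4 and 28.0 in MAflox 4-OHT, and 18.2 and 48.3 in MAflox EtOH.

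Partners of the proteasome that the symbols leave out moved in both directions. Of 16 tested partners, 12 fell and 3 rose with 4-OHT in MATIP cells (median log2 −0.295), and 9 fell and 4 rose in MAflox cells (median −0.38). Beside these and the counts below, 38.6% of all tested genes fell and 37.5% rose in MATIP cells. In MAflox cells 32.1% of them fell and 33.1% rose. The phosphatase Ublcp1, which acts on the proteasome, rose in both lines, by 3.51 in MATIP and 2.28 in MAflox cells. The shuttle factor Ubqln4 fell by 1.68 in MATIP and 0.93 in MAflox cells. Ubqln2 fell by 1.25 in MAflox and 0.23 in MATIP cells. Txnl1, a thioredoxin-like protein of the regulatory particle, gave the difference with the lowest p, −1.25. Among 6 genes of ubiquitin and its activating enzymes, 3 fell and 2 rose in MATIP cells and 2 fell and 3 rose in MAflox cells. Rps27a, which encodes a ubiquitin fused to a ribosomal protein, averaged 296 ± 5.15 CPM with 4-OHT and 724 ± 52.3 CPM with EtOH in MATIP cells, and 1268 ± 15.9 CPM with 4-OHT and 769.5 ± 47.4 CPM with EtOH in MAflox cells. Its responses of −1.29 ± 0.06 in MATIP and 0.72 ± 0.06 in MAflox cells differed by −2.01 ± 0.09. Uba1, the main activating enzyme, fell by 0.92 in MATIP and 0.36 in MAflox cells. Ubb, a polyubiquitin gene, rose by 0.47 in MAflox and 0.31 in MATIP cells. Of 8 genes of the p97 segregase, which pulls substrates out of complexes, 7 fell and 1 rose in MATIP cells and 4 fell and 2 rose in MAflox cells. The cofactors Ubxn1 and Faf1 fell by 0.80 and 0.58 on the log2 scale in MATIP cells. In MAflox cells Ubxn1 rose by 0.33 and Faf1 fell by 0.56. Vcp, which is p97 itself, and its cofactor Nploc4 fell by 0.97 and 0.81 in MAflox cells. In MATIP cells they fell by 0.48 and 0.20.

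Of 10 genes that act in the transcription of proteasome genes, 4 fell and 3 rose with 4-OHT in each line (median log2 −0.08 in MATIP and −0.15 in MAflox cells). These counts lie near the shares of all tested genes, of which 38.6% fell and 37.5% rose in MATIP cells. In MAflox cells 32.1% fell and 33.1% rose. Nfe2l1, the factor known to raise proteasome genes when the proteasome is short, averaged 178 ± 2.99 CPM with 4-OHT and 191 ± 2.89 CPM with EtOH in MATIP cells, where it did not pass, and 77.9 ± 6.79 CPM with 4-OHT and 138 ± 4.30 CPM with EtOH in MAflox cells, where it fell by 0.82. Nfe2l2, the oxidative stress factor, rose by 1.20 in MATIP and 0.46 in MAflox cells, and its inhibitor Keap1 fell by 0.72 in MATIP cells. Nfyc, a subunit of the factor that binds CCAAT boxes, fell by 0.71 in MAflox cells and Nfyb differed between responses by −0.89.

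Of 13 genes of interferon signalling to the immunoproteasome, 11 rose and 1 fell in MATIP cells (median log2 0.71), where 37.5% of all tested genes rose and 38.6% fell. In MAflox cells 9 of the 13 rose and 2 fell (median 0.37), where 33.1% of all tested genes rose and 32.1% fell. Socs1, the feedback inhibitor of the pathway, rose by 1.69 in MAflox and 0.88 in MATIP cells. The receptor chain Ifngr2 rose by 1.73 in MATIP and 0.46 in MAflox cells, and the kinase Jak1 by 1.19 in MATIP and 0.37 in MAflox cells. Of 11 genes of class I antigen processing, 4 rose and 6 fell in MATIP cells (median −0.38) and 4 rose and 7 fell in MAflox cells (median −0.26). H2-D1, a class I heavy chain, rose by 2.30 in MATIP and 0.59 in MAflox cells. B2m, the light chain, rose by 1.13 in MATIP and 0.79 in MAflox cells. The chaperone Calr fell in both, by 1.23 in MATIP and 0.79 in MAflox cells. The peptide transporter Tap2 differed between responses by −0.79.

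In the authors' deposited table, calls at 0.05 were the same as here for 46 of 47 genes in MATIP cells (all but Psmb7) and 45 of 47 in MAflox cells (all but Psmb6 and Psmc4), counting Psma8, which has no adjusted p for MAflox cells there, as not passing. Leaving out Psma8, the largest gap between log2 fold changes was 0.0438 in MATIP and 0.00827 in MAflox cells. For Psma8 in MAflox cells the authors' deposited table gives a log2 fold change of −0.38, against −4.65 in the edgeR fit, at 0 counts with 4-OHT and 6 with EtOH. Some genes share sequence with copies or neighbours, and how reads that map to several places were counted is not given in the sources used here. Of 50-base stretches, 57.1% in Psmb5, 55.4% in Psma5, 55.8% in Psmb3 and 31.5% in Psma4 also occur in another annotated gene. On the mm10 assembly Psmb8 lies on chromosome 17 at 34197721 to 34201454 and shares 498 exon bases with the antisense gene Gm20496, and Psmb9 lies at 34181987 to 34187764 and shares 212 with Tap1 on the opposite strand. Psmb10 lies on chromosome 8 at 105935735 to 105938444 and shares none. The constitutive gene Psmb7 shares 405 exon bases with Nek6 on the opposite strand. The sources used here do not say whether strand was used in counting, so counts in such overlaps are uncertain. The 3 immunoproteasome genes are protein-coding.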

How the data were processed

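RNA of 8 libraries was read as gene counts that the authors deposited in 1 table, with their own log2 fold changes and adjusted p-values in the authors' deposited table. The submitters' processing notes list HISAT2 (2.1.0), featureCounts (1.6.4), Trimmomatic (0.38.0) and DESeq2, with mm10 as build. The sources used here give no annotation, strand setting or rule for multiply mapped reads, and 23 columns of the table were empty.

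Counts were tested with edgeR 4.0.16 in R 4.3.3: genes kept by filterByExpr (minimum count 10, minimum total 15), TMM scaling, 1 mean per group over all 8 libraries, quasi-likelihood F-test, and Benjamini-Hochberg adjustment over the 13722 genes tested. Calls were made at 0.05. CPM are counts scaled to the TMM-adjusted library size. The biological coefficient of variation was 5.98%. The procedure was run on simulated counts in which a small part of the genes was changed, in MATIP 4-OHT only. Far more genes passed in the data, so that run does not test the scaling of these libraries. Length and GC offsets came from a smooth fit per library (mgcv 1.9.3) on the 96.2% of tested genes with values. Other settings were DESeq2 1.42.0, its size factors in edgeR, library size alone, no filter, 1 CPM in 2 libraries, the compared libraries alone, a replicate block, and leaving out each library.

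Members, lists and tests were chosen with earlier results of these data known. Genes given in every library are the immunoproteasome genes, the subunits they replace, Psme1, Psme2 and the 2 largest and 2 smallest changes in each contrast; called members that oppose their class and the lowest p in each class are also named, and in the other lists the 2 lowest p in a contrast. Other members were named after their values were seen.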

Additional observations from a re-analysis of the deposited data

Results flagged for a closer look

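The responses of the lines to 4-OHT differed, by the interaction term of the edgeR fit at an adjusted p under 0.05, for 37 proteasome genes in the negative direction and for 2 in the positive direction (MATIP minus MAflox, 2 libraries a group). Those that passed in opposite directions in the lines had the following log2 differences. Among core genes it was −1.15 for Psma6, −1.04 for Psmb1 and −0.779 for Psmb5, and −0.98 for Psma1, −0.53 for Psma2, −0.64 for Psmb3 and −0.82 for Psmb4. For the immunoproteasome gene Psmb9 it was −1.09. Among subunits of the regulatory particle it was −0.509 for Psmd13, −0.803 for Psmd14 and −0.791 for Psmd4. For the PA28 pair it was −1.27 for Psme1 and −0.954 for Psme2. Psmf1, the inhibitor, had the opposite sign at 0.54. The rises of Psma1, Psma2, Psmb3, Psmb4, Psmb5, Psmd4, Psmd14 and Psme1 in MAflox cells turned below 0 after the length and GC correction. Of these, Psma1 (log2 −0.31), Psmb3 (log2 −0.39) and Psmd14 (log2 −0.14) passed there as falls. The rise of Psma6 was 0.187 and still passed, as did those of Psmb1, Psmb9 and Psme2, while that of Psmd13 did not pass. Groups of 2 libraries were too small to look for single libraries that stand apart.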

How the results depend on the processing

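Over all settings run, 39 to 42 of the 47 genes were lower and 2 to 4 higher with 4-OHT in MATIP cells. The cause of the changes below was not tested. Scaling by library size alone moved the median of all tested genes to −0.13 in MATIP and −0.15 in MAflox cells. With library size alone, 8 genes were higher in MAflox cells and the values there turned to −0.0878 for Psma7, −0.0841 for Psmb2, −0.0455 for Psmb6, −0.132 for Psmb7, −0.0271 for Psmd4 and −0.0696 for Psmd5, and in MATIP cells to −0.0432 for Psmd8 and −0.108 for Psme4. With length and GC offsets, 5 proteasome genes were higher and 33 lower in MAflox cells, beside 4406 and 4596 of all 13722 tested genes. Values there turned, among others, to −0.284 for Psma7, −0.441 for Psmb2, −0.105 for Psmb5, −0.379 for Psmb6, −0.356 for Psmb7, −0.142 for Psmd14, −0.0614 for Psmd4 and −0.00994 for Psme1. The difference between responses turned to 0.0168 for Psmb10, 0.264 for Psmb7, 0.0654 for Psmd8 and −8.31e-05 for Psmd3, and 7 were higher. The number higher in the difference was 4 with DESeq2, its size factors, library size alone or the 1 CPM filter, and 2 to 4 with a library left out.

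Same-numbered libraries did not deviate together (correlation −0.039 in MATIP and −0.0023 in MAflox cells). With 2 libraries a group this cannot show whether they came from the same culture or batch, which the labels do not say. With a replicate block, 42 were lower and 3 higher in MATIP cells, 17 lower and 14 higher in MAflox cells, 37 lower and 2 higher in the difference, and 8 lower and 2 higher between the lines in EtOH. The replicate block with length and GC offsets gave 5 higher and 33 lower in MAflox cells, with Psma7 at −0.284, Psmb2 −0.442, Psmb5 −0.104, Psmb6 −0.379, Psmb7 −0.354, Psmd14 −0.142, Psmd4 −0.0619 and Psme1 −0.00888, and in the difference 6 higher, with Psmb10 at 0.0212, Psmb7 0.261 and Psmd8 0.0654.

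In EtOH the number higher was 2 with DESeq2, its size factors, library size alone, no filter, the 1 CPM filter and only the 4 libraries compared. The number lower was 14 with DESeq2 size factors, 19 with library size alone, 15 with no filter, 13 with DESeq2 and 16 with only the 4 libraries compared. With a library left out, 2 to 4 were higher and 3 to 13 lower. Leaving out a library turned 4 values in sign. Psmb7 in MAflox cells ranged from −0.0584 (without MAflox EtOH replicate 2) to 0.147, Psme4 in MATIP cells from −0.0167 (without MATIP EtOH replicate 1) to 0.0969, the difference of Psmd10 from −0.0627 (without MAflox EtOH replicate 1) to 0.145 and that of Psmd3 from −0.0455 (without MATIP EtOH replicate 2) to 0.108. MAflox counts ranged over 11 to 16 higher and 13 to 18 lower with a library left out. The counts without Psma8 and those by class under other scalings were chosen after seeing the data.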
